A study of Mus musculus with 6 samples.

Results

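The 46 genes described here are interferon-stimulated genes, a fixed set of symbols taken by name. The set was chosen with earlier results of these data known, as were the pathway and marker lists used below. All 46 were found among the 55011 genes of the deposited count table. Polyadenylated RNA was counted in 6 libraries of cultured stromal cells taken from visceral fat of mice (eWAT in the design text, usually short for epididymal white adipose tissue). The cells of both groups were Il33-EGFP-, so they did not show the EGFP that reports Il33, an alarmin cytokine gene. They were kept for 3 days with 10 nM irisin/HSP90α (n = 3 libraries, called irisin here) or with phosphate-buffered saline (PBS, n = 3). Irisin is the secreted fragment of Fndc5, released by muscle, and HSP90α is a chaperone that is also found outside cells. The labels give neither the age and number of the mice nor whether HSP90α was also added with PBS. Nothing in the labels says that replicates came from separate animals or cultures. P-values therefore measure only how far these libraries spread, which may be technical. The study asks whether irisin/HSP90α turns adipocyte precursors into stromal cells that modulate immunity, and it has the single contrast of irisin against PBS.

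Interferons are cytokines of antiviral defence that bind receptor pairs, Ifnar1 with Ifnar2 for the alpha and beta interferons and Ifngr1 with Ifngr2 for interferon gamma. The receptors work through the kinases Jak1, Jak2 and Tyk2, which activate STAT transcription factors. Stat2 and Irf9 act in a complex that binds the interferon-stimulated response element (ISRE), and STAT dimers bind the gamma-activated sequence (GAS). The genes switched on in this way sense foreign RNA, cut or hide it, block the translation of viral proteins and attack vacuoles that hold microbes, and many are also transcribed at a low level in resting fibroblasts.

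Depth was similar in both groups, with 5360724 to 6588363 counts per irisin library and 5271309 to 6745799 per PBS library. Levels are given in CPM, counts divided by library size with TMM scaling, and 1 CPM stood on 5.17 to 6.89 counts. The stromal markers Pdgfra, Pdgfrb, Col1a1, Col1a2, Dcn, Lum, Thy1 and Ly6a were all detected. Their summed level was 28474 to 29305 CPM in irisin libraries and 21342 to 23940 CPM in PBS libraries, mostly from Col1a1, Col1a2 and Dcn. The markers did not move as one: Pdgfra (LFC 0.60) and Col1a1 (0.49) rose, whereas Thy1 (-1.30) and Lum (-0.76) fell, with adjusted p of 0.000620, 0.0154, 0.00138 and 0.00659 in edgeR in that order. Pdgfrb was lower in every irisin library without passing (LFC -0.24, adjusted p = 0.163 in edgeR). Ptprc, the pan-leukocyte marker CD45, lay at 0 to 0.320 CPM in irisin and 0.184 to 0.435 CPM in PBS. Of 7 T and NK cell markers, 5 had no count in any library, and 3 B cell markers summed to 0 to 0.480 CPM with irisin and 0 to 0.317 CPM with PBS. Endothelial markers summed to 18.2 to 26.1 CPM with irisin and 30.9 to 37.4 CPM with PBS, mesothelial markers to 38.6 to 49.96 CPM and 35.0 to 41.5 CPM, and adipocyte markers to 39.8 to 47.8 CPM and 145 to 234 CPM, in the same order. Most of the endothelial sum was Tek, at 18.0 to 24.6 CPM with irisin and 30.4 to 36.4 CPM with PBS. Pecam1, Cdh5 and Kdr lay at 0.871 CPM or less in every library. Wt1 made up most of the mesothelial sum, at 36.5 to 49.5 CPM with irisin and 34.6 to 40.6 CPM with PBS. The list for plasmacytoid dendritic cells, strong producers of interferon, summed to 116 to 120.2 CPM with irisin and 119.7 to 128 CPM with PBS, with their defining gene Siglech at 0 in every library but irisin replicate 3 (0.314 CPM). Most of that sum was Tcf4, at 98.4 to 104 CPM with irisin and 105 to 113 CPM with PBS. In bulk RNA, a change in the share of a cell type and a change of RNA per cell cannot be told apart.

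The interferon-stimulated genes lay higher on average with irisin, but few differed by more than the spread between libraries. Gbp2, a guanylate-binding GTPase that coats vacuoles holding microbes, and Parp14, an ADP-ribosyltransferase, rose almost 2-fold. Irf1, a transcription factor induced by interferon gamma, and Isg20, an exonuclease that degrades viral RNA, rose about 1.5-fold. Most of the classical antiviral genes, among them Ifit1, Isg15, Irf7, Zbp1 and Oasl2, did not pass the test, although their fitted differences were larger. In each group these genes were high in replicate 3 and lower in the other 2 libraries. The test was edgeR's quasi-likelihood test over 12296 genes with Benjamini-Hochberg adjustment at 0.05. Of the 46 genes, 40 had enough counts to be tested, and 4 of the 40 (10%) rose, against 4.2% of all genes tested that rose and 7.42% that moved in either direction. None fell, against 3.22% of all genes tested, and 0 lay lower at an unadjusted p under 0.05, against 8.91%. DESeq2 and limma-voom also called 0 as lower. At an unadjusted p under 0.05, 13 of the 40 (32.5%) lay higher, against 9.27% of all genes. The log2 fold change (LFC, irisin over PBS) was positive in 39 of the 40, against 48.7% of all genes. Its median was 0.75, against -0.0082 over all genes tested, and it ran from -0.0049 for Samhd1 to 2.02 for Zbp1. Most of these genes moved together between libraries, as described below, so such counts are not 40 separate observations. A gene high only with irisin can pass the count filter through that group, so these figures can lean towards genes that rose. They also leave out the 6 members that were not tested. Of the 40, 34 exceeded the cut-off of 1.59 CPM in all 3 PBS libraries, and Oas2, Cmpk2 and Gbp5 did so in all 3 libraries of irisin alone. The other 3 did so in all libraries of neither group. Oas2 is among the 13 genes with an unadjusted p under 0.05 in edgeR. With no filter, 45 of the 46 had a positive LFC and the median was 0.81.

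The 4 genes that rose varied within a group by 1.51-fold at most. Gbp2 had 105, 95.5 and 106 CPM in irisin replicates 1 to 3, against 54.3, 44.5 and 65.4 CPM in PBS replicates 1 to 3. All 3 irisin values lay above all 3 PBS values, by more than the range within either group. The fold was 1.87 (LFC 0.91 ± 0.13 SE, adjusted p = 0.000580 in edgeR). Parp14 had 23.2, 27.8 and 27.3 CPM with irisin, against 12.6, 13.8 and 14.0 CPM with PBS. These groups too were far apart, and the fold was 1.94 (LFC 0.96 ± 0.15, adjusted p = 0.00106 in edgeR). Irf1 had 43.2, 38.3 and 57.7 CPM with irisin, against 34.5, 30.7 and 26.9 CPM with PBS. Its lowest irisin library was only slightly above its highest PBS library, and the fold was 1.51 (LFC 0.59 ± 0.16, adjusted p = 0.0398 in edgeR). Isg20 had 25.9, 24.9 and 28.9 CPM with irisin, against 16.1, 18.4 and 20.4 CPM with PBS. Its groups did not overlap either, and the fold was 1.46 (LFC 0.54 ± 0.15, adjusted p = 0.0398 in edgeR). Gbp2 and Parp14 kept their call in all 17 other fits at the same threshold. Irf1 lost it in 9 of the 17, with adjusted p up to 0.209 (without irisin replicate 3), also without irisin replicate 1 or any single PBS library and with total counts alone. Isg20 lost it in 9 as well, with adjusted p up to 0.179 (without irisin replicate 3), also without irisin replicate 1 or 2 or PBS replicate 1 or 2, with total counts alone and with DESeq2.

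Groups that did not overlap were not much more frequent among these genes than elsewhere. In 6 of the 40 tested (15%) all irisin libraries lay above all PBS libraries, against 12.1% of all genes tested, and in 0 did they lie below, against 11.5%. Besides the 4 genes above, these were Zbp1 and Oasl1. Among untested genes, the chemokine gene Cxcl9 had groups apart in CPM alone, with a lowest irisin value of 1.55 and a highest PBS value of 1.29. Its counts were 10, 8 and 29 in irisin libraries and 8, 8 and 7 in PBS libraries. Irisin replicate 2 thus tied with PBS replicates 1 and 2, and the gap rests on scaling by library size. The count of genes that rose depended on single libraries. It was 2 without PBS replicate 1 (2.84% of all genes rose), 2 without PBS replicate 2 (2.94%) and 2 without irisin replicate 3 (2.67%). It was 3 without irisin replicate 1 (3.22%), 5 without irisin replicate 2 (2.79%) and 10 without PBS replicate 3 (5.6%). The median LFC was 0.41 without irisin replicate 3. Among other fits, 2 rose with total counts alone (3.43%), 5 with DESeq2 (4.01%), 5 with limma-voom (5.73%) and 4 without robust dispersion (4.07%). With no low-count filter 14 of 46 rose (1.9%), with a count minimum of 50 it was 4 of 32 (4.98%), and at an adjusted p of 0.10 it was 6 of 40 (5.55%).

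**Figure D1:**
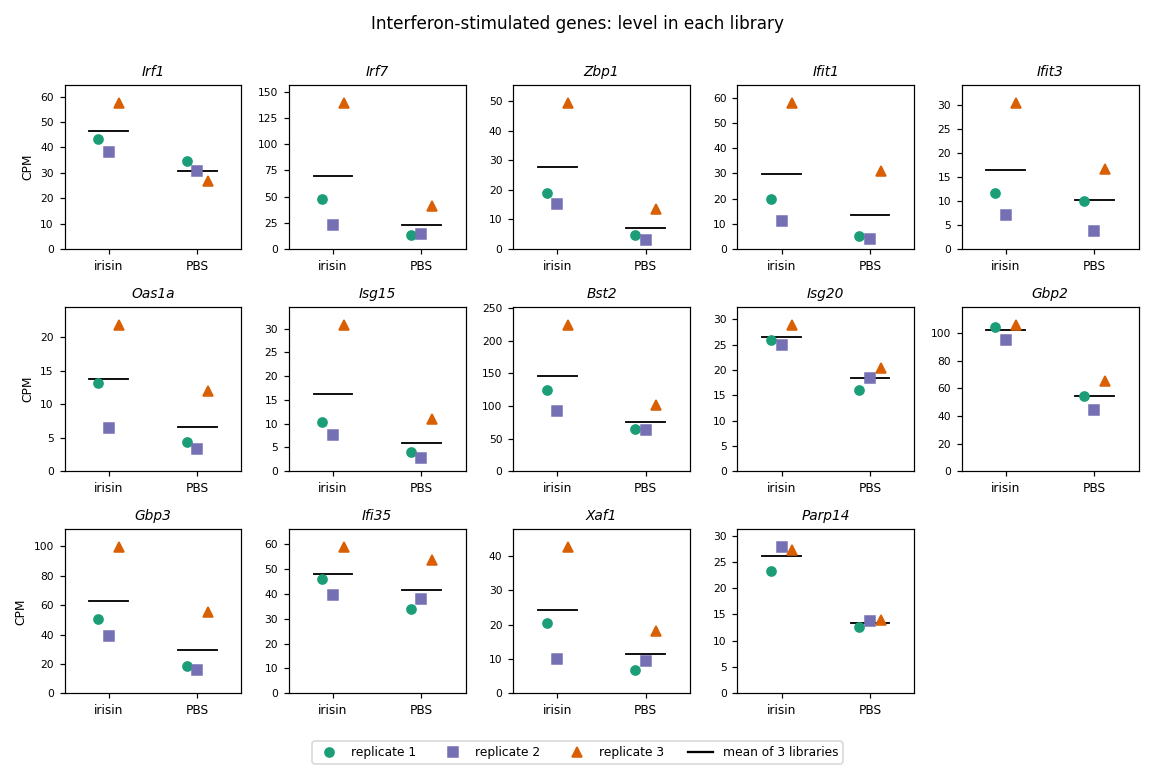
Level in CPM (vertical axis, starting at 0 in each panel) of 14 interferon-stimulated genes in the 3 irisin libraries and the 3 PBS libraries. Colour and shape give the replicate number and the line gives the mean of 3 libraries. In all panels but Irf1 and Parp14, and so also in Gbp2 and Isg20, the triangle of replicate 3 is the highest point of each group. The groups do not overlap in Gbp2, Parp14, Isg20, Irf1 and Zbp1.

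Of the 4 transcription factors, Irf1 alone passed. Stat2 had 65.9, 54.3 and 93.5 CPM in irisin replicates 1 to 3, against 43.8, 38.03 and 67.0 CPM in PBS replicates 1 to 3 (LFC 0.53 ± 0.27, adjusted p = 0.371 in edgeR). Irf9, its DNA-binding partner, averaged 63.5 ± 16.4 CPM with irisin and 45.1 ± 14.1 CPM with PBS (SD, n = 3 each; adjusted p = 0.378 in edgeR). In both genes PBS replicate 3 was above irisin replicate 2, so the groups overlapped. Irf7, the factor that amplifies interferon production, was the most uneven of the transcription factors. It had 47.8, 22.4 and 139.7 CPM with irisin, against 13.2, 14.3 and 41.2 CPM with PBS. Irisin replicate 3 was 6.23-fold above irisin replicate 2, and PBS replicate 3 was 3.12-fold above PBS replicate 1. The fitted fold of 3.14 therefore did not pass (LFC 1.65 ± 0.92, adjusted p = 0.476 in edgeR).

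The sensors of foreign nucleic acid did not pass either, and all 4 had a positive LFC (0.62 to 2.02). Zbp1, which recognises Z-form nucleic acid and can trigger cell death, had 19.0, 15.1 and 49.5 CPM in irisin libraries, against 4.64, 3.17 and 13.6 CPM in PBS libraries. Its lowest irisin value was above its highest PBS value, but each group spread more than 3-fold (LFC 2.02 ± 0.75, adjusted p = 0.247 in edgeR). Ddx58, which encodes the RNA sensor RIG-I, had 92.2, 69.4 and 117 CPM with irisin, against 53.7, 46.6 and 71.8 CPM with PBS. Only irisin replicate 2 lay within the PBS range (LFC 0.70 ± 0.21, adjusted p = 0.0991 in edgeR). Ifih1, the sensor MDA5 of long double-stranded RNA, and Dhx58, the related regulator LGP2, had adjusted p of 0.246 and 0.307 in edgeR.

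The IFIT family, proteins that bind viral RNA and restrain its translation, held both the most variable gene of the set, Ifit1, and one of the evenest, Ifit2. Ifit1 had 19.8, 11.2 and 58.1 CPM in irisin libraries, against 4.93, 3.80 and 31.1 CPM in PBS libraries. PBS replicate 3 thus exceeded irisin replicates 1 and 2, and within PBS the highest library was 8.18-fold above the lowest (LFC 1.23 ± 1.11, adjusted p = 0.689 in edgeR). Ifit3 had 11.7, 7.15 and 30.5 CPM with irisin, against 10.0, 3.80 and 16.6 CPM with PBS. It showed the same order of libraries (LFC 0.74 ± 0.74, adjusted p = 0.720 in edgeR), and without irisin replicate 3 its LFC was -0.072. Ifit2, its neighbour on chromosome 19, was flat, with 25.9, 27.8 and 31.9 CPM with irisin and 24.4, 26.8 and 30.2 CPM with PBS (LFC 0.08 ± 0.14, adjusted p = 0.856 in edgeR). Its LFC was negative when libraries were scaled by total counts alone. Ifit3b was low, at 0.773 to 5.34 CPM with irisin and 1.43 to 3.31 CPM with PBS. Ifit3 and Ifit3b could trade reads: 51.2% of the 50-base words in Ifit3 transcripts and 45% of those in Ifit3b transcripts also occur in another gene, chiefly in each other (GENCODE M21).

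The OAS family is named after the oligoadenylate synthetases, which switch on the RNA-degrading enzyme RNase L, and not every member need have that activity. It showed the same order of libraries in 4 of 5 tested genes, with replicate 3 highest in each group. Oas1a had 13.1, 6.38 and 21.8 CPM in irisin libraries, against 4.35, 3.33 and 11.97 CPM in PBS libraries (LFC 1.13 ± 0.62, adjusted p = 0.438 in edgeR). PBS replicate 3 was again above irisin replicate 2, and 57.6% of the 50-base words of Oas1a occur in other genes, chiefly its relatives Oas1g and Oas1b. Oasl2, the most abundant of the family by CPM, had 59.2, 39.6 and 119.6 CPM with irisin, against 24.4, 17.0 and 56.2 CPM with PBS (LFC 1.19 ± 0.65, adjusted p = 0.466 in edgeR). Oasl1 was low in PBS without rising in replicate 3. It had 2.40, 3.29 and 7.70 CPM with irisin, against 1.89, 1.74 and 1.66 CPM with PBS (LFC 1.34 ± 0.44, adjusted p = 0.101 in edgeR). Oas2 was at 6.76 to 21.7 CPM with irisin and 1.27 to 7.18 CPM with PBS. Oas1b, annotated as a polymorphic pseudogene in GENCODE M21, stayed under 6 CPM, and Oas3 was too low to test, at no more than 12 counts in a library.

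Isg15, a ubiquitin-like protein attached to other proteins, had 10.4, 7.54 and 30.8 CPM in irisin libraries, against 3.92, 2.85 and 11.05 CPM in PBS libraries. Replicate 3 was about 4-fold above replicate 2 in each group, and the groups overlapped (LFC 1.51 ± 0.78, adjusted p = 0.419 in edgeR). Usp18, the protease that removes Isg15 and restrains the receptor, averaged 14.6 ± 9.37 CPM with irisin and 8.70 ± 5.87 CPM with PBS (SD, n = 3 each; adjusted p = 0.629 in edgeR). Herc6, the mouse ligase for Isg15, was an exception to the order of libraries in irisin, with its highest value of 8.64 CPM in replicate 1, against 5.41 and 6.76 CPM in replicates 2 and 3. It had 2.90, 6.81 and 8.65 CPM in PBS libraries.

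Among the other antiviral effectors, Bst2, which encodes the tether tetherin that holds budding virus at the cell surface, was the most abundant gene of the set per kilobase of exon. Its level was 162 ± 76.7 CPM per kb with irisin and 84.2 ± 23.9 CPM per kb with PBS (SD, n = 3 each). In CPM it had 124, 91.6 and 224 in irisin libraries, against 64.7, 62.4 and 101 in PBS libraries, so that PBS replicate 3 was above irisin replicate 2 (LFC 0.96 ± 0.40, adjusted p = 0.314 in edgeR). Gbp2 with 31.2, Ifi35 with 26.0 and Isg15 with 14.7 CPM per kb over all 6 libraries followed it. Their order is not firm, since Ifi35 and Isg15 each ranged over more than the step between neighbours. Ifi35, a partner of Nmi, had 45.9, 39.6 and 58.8 CPM with irisin and 33.7, 37.7 and 53.4 CPM with PBS, and its groups overlapped (LFC 0.22 ± 0.19, adjusted p = 0.637 in edgeR). Samhd1, which depletes the nucleotides needed for reverse transcription, was level at 90.2 ± 10.0 CPM with irisin and 90.8 ± 17.8 CPM with PBS (SD, n = 3 each; adjusted p = 0.992 in edgeR). Eif2ak2, which encodes the kinase PKR that halts translation, had 19.7 to 39.6 CPM with irisin and 19.3 to 26.1 CPM with PBS (adjusted p = 0.619 in edgeR). Mx2, of a GTPase family and annotated as a polymorphic pseudogene in GENCODE M21, stood at 1.16 to 6.76 CPM with irisin and 0.317 to 2.03 CPM with PBS. Cmpk2, a mitochondrial nucleotide kinase, stood at 2.40 to 2.83 CPM and 1.11 to 3.31 CPM in the same order. Mx1 had 7 counts in irisin replicate 3, 1 in PBS replicate 2 and none elsewhere, and Rsad2, which encodes viperin, had at most 13 counts.

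Of the 8 guanylate-binding and immunity-related GTPases, all were tested and Gbp2 alone passed. Gbp3 had 50.7, 39.0 and 99.6 CPM in irisin libraries, against 18.4, 16.0 and 55.0 CPM in PBS libraries. It lies next to Gbp2 on chromosome 3 but spread 2.55-fold within irisin and 3.44-fold within PBS, against 1.11-fold and 1.47-fold for Gbp2. Its LFC of 1.11 ± 0.66 was larger than that of Gbp2 and did not pass (adjusted p = 0.506 in edgeR). Irgm1, Irgm2 and Igtp, which direct such GTPases to membranes, averaged 56.6 ± 22.5, 46.1 ± 18.3 and 17.7 ± 7.98 CPM with irisin, against 40.4 ± 12.8, 27.7 ± 15.7 and 12.2 ± 6.37 CPM with PBS (SD, n = 3 each). None of these passed, with adjusted p of 0.563 to 0.599 in edgeR, and neither did Gbp7 (0.216), Gbp5 (0.323) or Iigp1 (0.926). Cxcl9 and Cxcl10, chemokines for T cells that are strongly induced by interferon gamma, were too low to test, at 0.786 to 4.56 CPM with irisin and 0.368 to 1.29 CPM with PBS.

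In the remaining genes, Xaf1, a proapoptotic factor, had 20.5, 10.1 and 42.6 CPM in irisin libraries, against 6.68, 9.51 and 18.2 CPM in PBS libraries (LFC 1.13 ± 0.65, adjusted p = 0.480 in edgeR). Rtp4, a restriction factor of flaviviruses, had 23.5, 15.3 and 50.6 CPM with irisin, against 6.39, 6.18 and 19.5 CPM with PBS (LFC 1.52 ± 0.68, adjusted p = 0.338 in edgeR). In both genes replicate 3 stood highest in each group. Trim30a, a regulator of Toll-like receptor signals, came close to the threshold with 33.0, 24.4 and 44.8 CPM with irisin, against 19.9, 18.7 and 25.04 CPM with PBS (LFC 0.69 ± 0.21, adjusted p = 0.0696 in edgeR). Parp9, which works with Dtx3l, averaged 58.8 ± 15.2 CPM with irisin and 40.3 ± 11.98 CPM with PBS (SD, n = 3 each; adjusted p = 0.262 in edgeR). It shares 458 exon bases with Dtx3l on the opposite strand, and whether the counting used strand is not given in the sources used here. Ifi44 was too low to test, with 12, 1 and 37 counts with irisin and 1, 3 and 7 counts with PBS.

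The spread between libraries was the second feature of these genes. In irisin, 38 of the 40 tested genes were highest in replicate 3 (95%), against 31.8% of all genes tested. In PBS, 38 of 40 were highest in replicate 3 (95%), against 39.5% of all genes. In 36 of 40 (90%) replicate 3 was highest in both groups, against 9.07% of all genes. The exceptions were Herc6 and Parp14 in irisin, and Irf1 and Oasl1 in PBS. Irisin replicate 2 was the lowest of its group in 35 of 40 (87.5%, against 31.5% of all genes). Summed over all 46 genes, the level was 1379, 1069.9 and 2183 CPM in irisin replicates 1 to 3, against 799, 752 and 1301 CPM in PBS replicates 1 to 3. The highest PBS library thus held more of these transcripts than irisin replicate 2. In 34 of the 40 genes (85%) PBS replicate 3 exceeded irisin replicate 2, against 49.7% of all genes.

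**Figure D2:**
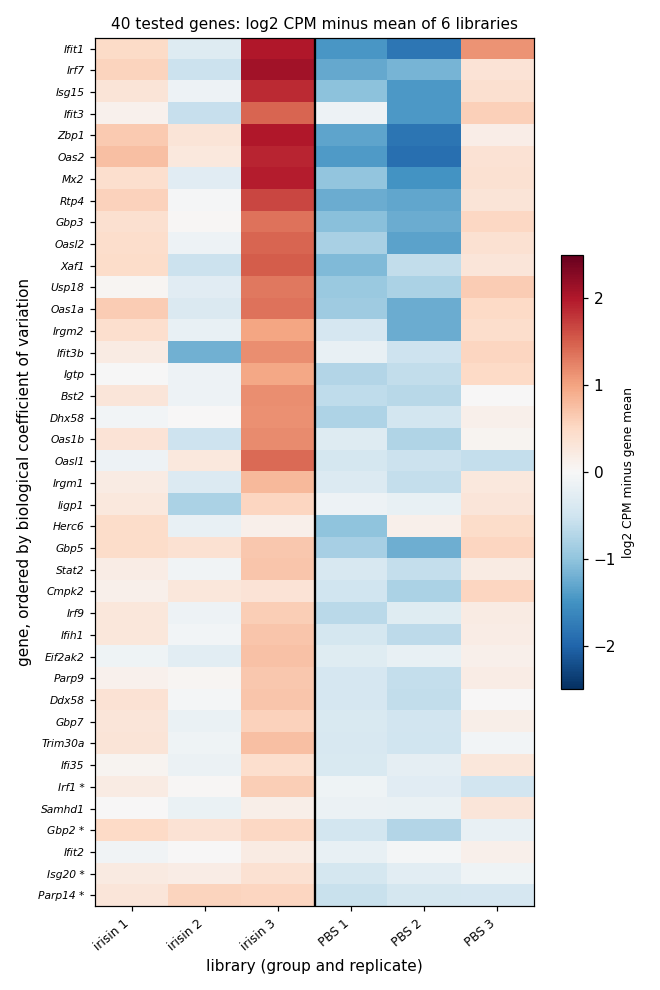
Level of the 40 tested genes in each library as log2 CPM minus the gene's mean over 6 libraries (colour scale), irisin libraries left of the black line and PBS libraries right of it. Genes run from the highest biological coefficient of variation at the top (Ifit1, 0.897) to the lowest at the bottom (Parp14, 0.109), and an asterisk marks the 4 that passed adjusted p 0.05.

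Within-group spread exceeded that of other genes at a similar level. The median SD of log2 CPM was 0.59 in irisin and 0.45 in PBS, against 0.16 and 0.18 for all genes tested, while the median level was 23.5 CPM for these genes and 24.9 CPM for all. The biological coefficient of variation, which edgeR estimates from replicates after allowing for counting error, had a median of 0.294, against 0.121 for all genes. It lay above edgeR's trend for genes of the same abundance in 37 of 40 (92.5%, against 32.9% of all genes). It was at least 2 times the trend in 20 of 40 genes, against 1.75% of all genes. Ifit2, Isg20 and Parp14 were the 3 genes below the trend. The fitted LFC was at least 1, a 2-fold difference, in 13 of the 40 genes, and 0 of these 13 passed.

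**Figure D3:**
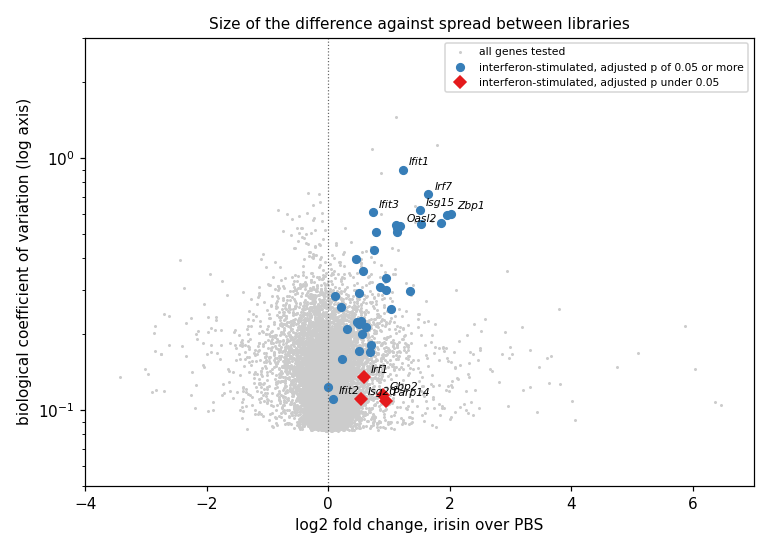
Biological coefficient of variation (vertical log axis) against log2 fold change, irisin over PBS (horizontal axis), for all 12296 genes tested (grey) and the 40 tested interferon-stimulated genes (blue circles, or red diamonds where adjusted p was under 0.05). The 4 diamonds lie at coefficients of 0.109 to 0.135, and genes with larger fitted differences such as Zbp1, Irf7 and Ifit1 lie between 0.600 and 0.897.

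Replicate 3 stood apart by a like amount in each group. The mean deviation of the 40 genes from their group mean was 0.63 in irisin replicate 3 and 0.63 in PBS replicate 3 on the log2 scale. It was -0.11 and -0.52 in irisin replicates 1 and 2, and -0.25 and -0.39 in PBS replicates 1 and 2. Over all genes tested these means lay between -0.033 and 0.019. Set library against library, the median log2 difference of the 40 genes ran from -0.38 for irisin replicate 2 against PBS replicate 3, with 6 of 40 genes higher, to 1.58 for irisin replicate 3 against PBS replicate 2, with 39 of 40 higher. It was 0.70 between the irisin and PBS libraries numbered 3, with 37 of 40 genes higher in irisin. With both of those libraries left out, an alternative chosen after the values were seen, 17 of 39 tested genes rose, against 4.7% of all genes, and the median LFC was 0.63. The 17 included Gbp2 and Parp14 but not Irf1 or Isg20. Zbp1 then had an LFC of 2.12 (adjusted p = 5.95e-05 in edgeR). With all libraries its adjusted p was 0.247, and it also passed in the fit without robust dispersion (0.0449) and in 1 other fit, but not in the rest (up to 0.634). In the fit without both libraries Gbp3 had an LFC of 1.39 (adjusted p = 5.12e-05 in edgeR), Ifit1 of 1.84 (0.000801) and Isg15 of 1.41 (0.00904). That choice removes the libraries in which these genes were highest and so narrows their spread by construction, and it is no independent support.

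**Figure D4:**
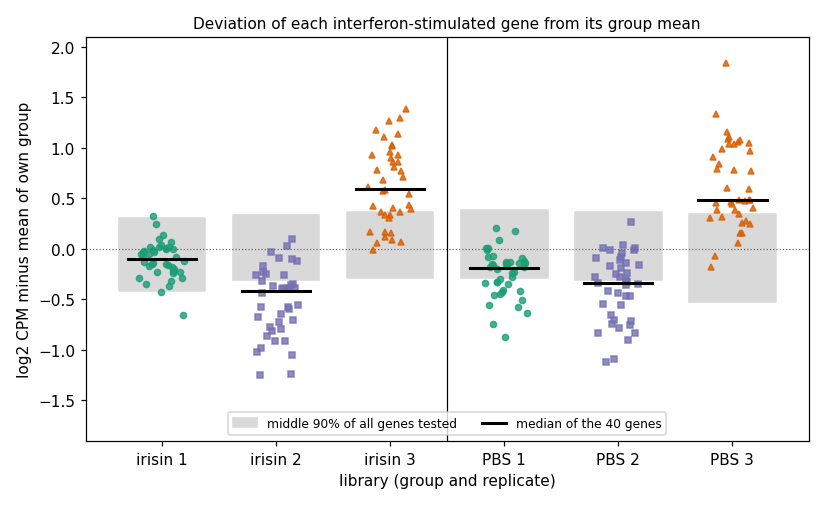
Deviation of each of the 40 tested genes from the mean of its own group in log2 CPM (vertical axis), by library, with irisin on the left and PBS on the right. Points are genes, the black line is their median and the grey box spans the middle 90% of all genes tested. The medians lie at 0.60 in irisin replicate 3 and 0.49 in PBS replicate 3, and below 0 in the other 4 libraries.

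Some other measures moved with replicate 3. Of 8 macrophage markers, 7 had a count in some library and C1qa had none. Adgre1, which encodes the macrophage marker F4/80, had 10 counts in irisin replicate 3 and 8 counts in PBS replicate 3, and 0 in the other 4 libraries. Lyz2, the lysozyme of myeloid cells, had 6.88, 4.25 and 17.4 CPM in irisin libraries, against 6.53, 6.34 and 11.6 CPM in PBS libraries. Not all markers of the list had this order. Cd14, a myeloid receptor of bacterial lipid, had 8.64, 9.08 and 5.66 CPM with irisin, against 8.13, 4.44 and 5.52 CPM with PBS. Cd68, a lysosomal protein of macrophages, had 2.24, 2.71 and 2.67 CPM with irisin, against 6.39, 2.69 and 2.58 CPM with PBS. C1qb and Mrc1 stayed under 1 CPM in every library. The summed level of the macrophage list was 75.2, 71.5 and 92.7 CPM with irisin, against 77.6, 70.8 and 88.4 CPM with PBS. Most of that sum was Csf1r, a macrophage growth factor receptor, at 55.3 to 65.0 CPM with irisin and 56.0 to 66.1 CPM with PBS. Ptprc had 0 counts in irisin replicate 3 and 1 count in PBS replicate 3. The part of these transcripts in the result was not tested. Total counts were highest in irisin replicate 3 within irisin and lowest in PBS replicate 3 within PBS. The summed level of 7 mitochondrial transcripts was 7904, 7114 and 7049 CPM with irisin, against 6678, 7073 and 7557 CPM with PBS, lowest in irisin replicate 3 and highest in PBS replicate 3.

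Genes outside the set with the same order of libraries were ranked, among genes that averaged 10 CPM or more, are on none of the lists used here and are no predicted genes or pseudogenes, by the Pearson r between their deviations and the mean deviation of the 40 genes, over 6 libraries that share group means. The 10 highest of these, at 0.984 to 0.995, included Pms2, Phyhipl, Lpar6, Dnajc7, Mcm5, Zfp446, Nedd1, Stmn1 and Gla. Their deviations were small, with an SD of 0.072 to 0.32 on the log2 scale against a median of 0.51 for the 40 genes. Over all 12296 genes tested, 250 had an r over 0.9, and these include 29 of the 40 genes themselves. The mean was taken over those 40 genes, so a high r among them is in part built in. Genes were also ranked by how far they moved per unit of that mean, a rule chosen after the values were seen. Under the same restrictions Creb3l3 came first (slope 0.72). The first 15 included the interferon-inducible genes Samd9l (0.69), Rnf213 (0.56), H2-T23 (0.55), Ifitm3 (0.54) and H2-D1 (0.49). Also among them were Trim12a, Gla, Qrsl1, Ccdc77, Plk4, Pole2, Dapp1, Nars2 and Stim2, so the ranking was not confined to interferon-inducible genes. Ifitm3 had 1382, 1186 and 1655 CPM with irisin, against 649, 652 and 1024 CPM with PBS.

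Matches to the ISRE and the GAS were sought around the start sites of these genes, and windows around them are shown for 8 of the genes described above. RefSeq promoters of build GRCm38.p6, from 250 bases before to 50 bases after the start site, matched 35 of the 46 symbols. Letters were searched on both strands. Some matches lay after the start site, namely the ISRE core in Ifih1, Ddx58, Eif2ak2 and a promoter of Trim30a, and the GAS in Ifi35. The Gbp2 match lies before the RefSeq start site but just inside the gene as placed in GENCODE M21 (from 142620602). The core of the ISRE, GAAANNGAAA, was present in 21 of the 35 (60%), against 3.99% of 27025 genes and 3.44% of 32851 promoters. The GAS, TTCNNNGAA, was present in 12 of the 35 (34.3%), against 9.55% of genes and 8.3% of promoters. The ISRE core and the GAS overlap in Bst2. A kappa B core, the site type of NF-κB, was present in Gbp5 alone (2.86%, against 0.466% of genes and 0.411% of promoters). The genes were chosen as targets of interferon, so this share of ISRE cores is a property of the choice.

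The windows, 1 for each of the 8 genes, run 5′ to 3′ on the strand of the gene, with the matched letters in capitals. The first 3 belong to genes that rose, and the last 5 to genes with wide spread. Windows are shown only for genes with a match, and not for every match. Parp14, Irf7, Zbp1 and Xaf1 gave no match, and whether a promoter was available for each is not given here. Oas1a also held a GAS and Ifit3 held ISRE cores, which are not shown. The windows are therefore no comparison of genes that rose with genes of wide spread.
Gbp2, ISRE core, chr3:142620584-142620633, plus strand: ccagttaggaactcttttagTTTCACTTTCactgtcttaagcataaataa
Irf1, GAS, chr11:53769904-53769952, plus strand: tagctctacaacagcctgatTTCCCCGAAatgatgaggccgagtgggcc
Isg20, GAS, chr7:78913331-78913379, plus strand: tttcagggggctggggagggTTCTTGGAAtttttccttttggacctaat
Ifit1, 2 ISRE cores, chr19:34640765-34640833, plus strand: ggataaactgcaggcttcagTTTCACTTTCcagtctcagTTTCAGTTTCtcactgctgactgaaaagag
Isg15, 3 overlapping ISRE cores, chr4:156200855-156200916, minus strand: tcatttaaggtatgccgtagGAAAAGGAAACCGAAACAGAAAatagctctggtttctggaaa
Oas1a, 2 overlapping ISRE cores, chr5:120907526-120907565, minus strand: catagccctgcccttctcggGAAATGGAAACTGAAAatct
Gbp3, 2 overlapping ISRE cores, chr3:142559979-142560034, plus strand: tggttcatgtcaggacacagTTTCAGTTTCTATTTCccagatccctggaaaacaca
Bst2, a GAS and 2 ISRE cores, chr8:71537567-71537628, minus strand: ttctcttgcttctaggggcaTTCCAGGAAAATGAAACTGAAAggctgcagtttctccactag
Gbp2 and Gbp3, which share a chromosome region and differ in spread, both hold an ISRE core, in each case on the strand opposite to the gene. Irf1 and Isg20 had no ISRE core in the window searched. A match is a run of letters and not a measured site, and binding was not assayed here.

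Several receptor chains of interferon rose with little spread between libraries. Of 11 receptor and JAK-STAT genes, 10 were tested and 5 rose, against 4.2% of all genes tested. None fell, against 3.22% of all genes, and 0 lay lower at an unadjusted p under 0.05 in edgeR. Ifnar2, the chain that binds alpha and beta interferon most tightly, had 318, 303 and 324 CPM in irisin libraries, against 141, 129 and 122 CPM in PBS libraries. The groups were far apart at a fold of 2.41 (LFC 1.27 ± 0.09, adjusted p = 8.86e-07 in edgeR). Ifnar1, its partner chain, had 260.2, 239 and 231 CPM with irisin, against 144, 142 and 164 CPM with PBS (LFC 0.70 ± 0.09, adjusted p = 0.000244 in edgeR). Ifngr2, the signalling chain of the interferon gamma receptor, averaged 171 ± 2.44 CPM with irisin and 119.8 ± 5.15 CPM with PBS (SD, n = 3 each; LFC 0.52 ± 0.08, adjusted p = 0.00141 in edgeR). Il10rb, a chain shared by the receptors of interferon lambda and interleukin 10, averaged 55.0 ± 2.22 CPM with irisin and 32.8 ± 0.846 CPM with PBS (SD, n = 3 each; LFC 0.75 ± 0.11, adjusted p = 0.000547 in edgeR). Jak2, the kinase of Ifngr2, had 72.0, 70.5 and 74.9 CPM with irisin, against 37.9, 36.8 and 46.8 CPM with PBS (LFC 0.84 ± 0.12, adjusted p = 0.000410 in edgeR). All 5 kept their call in the 17 other fits. Jak1, Tyk2, Stat3 and Ifngr1 did not pass, with an LFC of 0.04, -0.10, 0.26 and 0.24. All irisin libraries nevertheless lay above all PBS libraries in Stat3 (adjusted p = 0.0862 in edgeR). In the receptor list 4 of 10 genes were highest in irisin replicate 3 (40%), against 31.8% of all genes, and 7 of 10 in PBS replicate 3 (70%), against 39.5%.

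**Figure D5:**
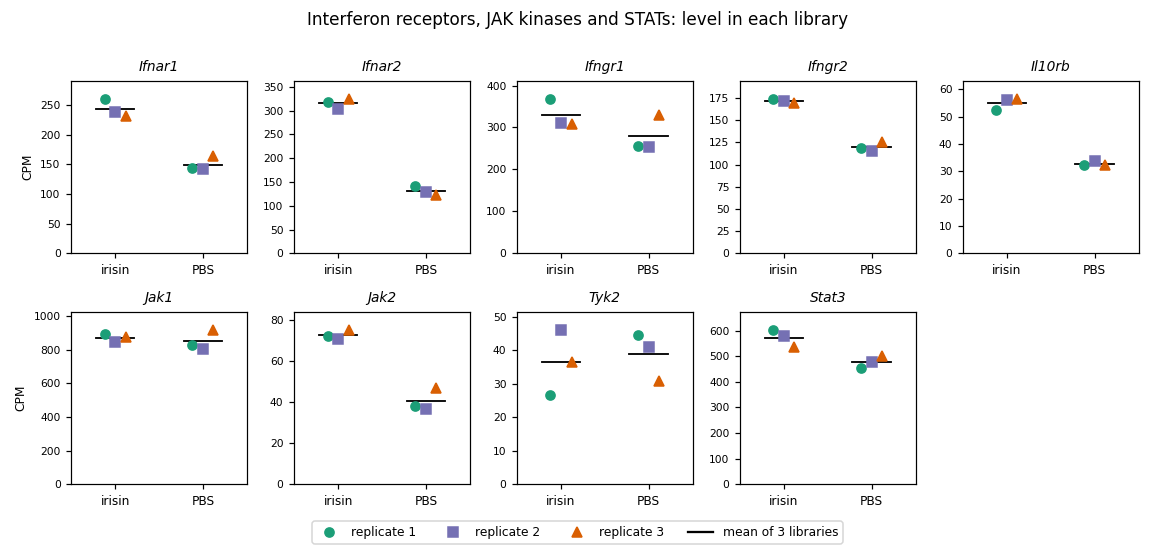
Level in CPM (vertical axis, starting at 0 in each panel) of 9 interferon receptor, JAK and STAT genes in the 3 irisin libraries and the 3 PBS libraries, marked as in the plot of the 14 interferon-stimulated genes. The groups are apart in Ifnar1, Ifnar2, Ifngr2, Il10rb and Jak2, where the largest irisin mean is 315 CPM (Ifnar2). They are also apart in Stat3, which did not pass, and overlap in Ifngr1, Jak1 and Tyk2.

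Transcripts of the 9 interferon genes looked up were almost absent. Of 9 interferon genes, Ifnb1, Ifna1, Ifna4, Ifnk, Ifne and Ifnl3 had no count in any library, which allows up to 0.580 CPM in an irisin library and 0.552 CPM in a PBS library. Ifna2 and Ifng had 1 count each in irisin replicate 3, and Ifnl2 had 1 count in PBS replicate 2. These limits cover counting error only, and the treatment of multi-mapping reads is not given in the sources used here. Other interferon genes were not looked up. Of 12 genes of nucleic acid sensing, 11 were tested and 2 rose, against 4.2% of all genes tested. They were Ikbke, a kinase that activates Irf3, at 60.1 ± 2.09 CPM with irisin and 32.0 ± 3.58 CPM with PBS (SD, n = 3 each; LFC 0.91 ± 0.12, adjusted p = 0.000225 in edgeR), and Tlr3, the endosomal sensor of double-stranded RNA, at 26.0 ± 2.26 and 15.9 ± 2.13 CPM in the same order (LFC 0.72 ± 0.15, adjusted p = 0.0110 in edgeR). With PBS replicate 2 or irisin replicate 3 left out, Tlr3 no longer passed (adjusted p up to 0.0683 in edgeR). Of 8 genes that restrain interferon signalling, 6 were tested and 1 rose, against the same 4.2%. It was Socs3, an inhibitor of JAK kinases downstream of interleukin 6 family receptors, at 186 ± 7.39 CPM with irisin and 97.4 ± 8.23 CPM with PBS (SD, n = 3 each; LFC 0.93 ± 0.09, adjusted p = 2.23e-05 in edgeR). Socs1, the inhibitor more specific to interferon receptors, did not pass, at 4.80, 11.6 and 9.58 CPM with irisin and 7.98, 6.34 and 3.68 CPM with PBS (adjusted p = 0.528 in edgeR).

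A further list held 40 interferon-stimulated genes outside the 46. Of its 33 tested genes, 5 rose, against 4.2% of all genes tested, and 0 fell, against 3.22%. The LFC was positive in 28 of the 33, against 48.7% of all genes, with a median of 0.28, against -0.0082 over all genes. Ube2l6, the conjugating enzyme for Isg15, had 137, 128 and 165 CPM with irisin, against 56.0, 41.8 and 78.2 CPM with PBS (LFC 1.29 ± 0.21, adjusted p = 0.00668 in edgeR). Its groups were apart although replicate 3 was highest in each, and its call held in the 17 other fits. Gbp9 (LFC 1.28 ± 0.35), Ddx60 (1.25 ± 0.33), Helz2 (0.62 ± 0.15) and Dtx3l (0.66 ± 0.18) rose with adjusted p of 0.0269 to 0.0467 in edgeR. Each of these 4 lost its call in 5 to 7 of the other fits, among them those without PBS replicate 1, PBS replicate 2 or irisin replicate 3. Replicate 3 was highest in 26 of 33 genes in irisin (78.8%, against 31.8% of all genes) and in 27 of 33 in PBS (81.8%, against 39.5%). Slfn5 went the other way without passing, at 61.9, 91.8 and 122.7 CPM with irisin and 158, 181 and 128 CPM with PBS (LFC -0.76, adjusted p = 0.172 in edgeR).

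Genome positions are those of GRCm38 (mm10) in GENCODE release M21. Several of these genes lie in clusters. Ifit2 (34550694 to 34576419), Ifit3 (34583531 to 34588731), Ifit3b (34607970 to 34613401) and Ifit1 (34640871 to 34650009) follow each other on chromosome 19. Gbp5, Gbp7, Gbp3 and Gbp2 lie on chromosome 3 between 142493978 and 142638008, and Oas2, Oas3, Oas1b and Oas1a on chromosome 5 between 120730333 and 120907521. Parp14 lies on chromosome 16 (35832874 to 35871544), Irf1 on chromosome 11 (53770014 to 53778374) and Isg20 on chromosome 7 (78913424 to 78920396). A count covers a whole gene and does not say which exon it came from. Irf1 shares 135 exon bases with a predicted gene on the opposite strand, Parp14 shares 110 with a predicted gene on its own strand, and Irgm2 and Igtp share 162 with each other.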

How the data were processed

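STAR 2.7.3a, featureCounts and build mm10 are named in the submitters' processing notes. Not given in the sources used here are the annotation release, the strand setting and the treatment of multi-mapping reads. Raw counts per gene symbol, not normalized, were deposited by the authors. From these, edgeR 4.0.16 in R 4.3.3 kept genes with filterByExpr (count minimum 10; 12296 of 31436 genes with any count), computed TMM factors (0.969 to 1.03) and tested irisin against PBS by robust quasi-likelihood, with group as the sole term. Standard errors are the size of the log2 fold change divided by the square root of the F statistic. P-values were adjusted over all genes tested by the Benjamini-Hochberg method at 0.05. The CPM denominator is the sum of counts of tested genes times the TMM factor. Deviations used log2 CPM with a prior count of 2.

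The members, the pathway and marker lists and the tests were chosen with earlier results of these data known. Values in every library are given for members that passed, the 8 most widely ranging within a group (mean 10 CPM or more), the 4 with the most CPM per kb of exon (GENCODE M21), and some others picked for their role after values were seen. The list symbols absent from the table (Tmem173, Mb21d1 and Irgb10) were read as Sting1, Cgas and Gm12250 by RefSeq synonym. Some genes of these lists are not reported here. Each column name matched 1 sample's label.

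Other scalings tried were RLE, upper quartile and total counts alone. Other tests were DESeq2 1.42.0, voom with quality weights per sample (limma 3.58.1) and edgeR without robust dispersion. Filters were none or a count minimum of 50. Further fits used a block for the replicate number, left out 1 or 2 libraries, and an adjusted p of 0.10. The edgeR step was tested on simulated data with the same biological coefficient of variation, 0.121, for every gene. It recovered 40% of 1.5-fold and 76% of 2-fold changes. The median coefficient of the tested interferon-stimulated genes was 0.294, so the simulation does not show how often genes that uneven are found.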

Additional observations from a re-analysis of the deposited data

How the results depend on the processing

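The direction of the median log2 fold change of the tested interferon-stimulated genes was positive in each of the 17 other fits (0.41 to 1.09 with single libraries left out). Their count of rises, 4, was 2 with total counts alone, 14 of 46 with no low-count filter, 9 without PBS replicate 3 and irisin replicate 1, 17 without PBS replicate 3 and irisin replicate 3, and 2 to 10 with single libraries left out. DESeq2 and limma-voom called 5 each, of which 3 and 4 were among the 4. Falls numbered 0 in each fit. With the replicate number as a block, 20 of 40 rose, against 3.43% of all genes, and 2 of the 4 (Gbp2 and Parp14) were among them, as was Zbp1 (adjusted p = 9.86e-05 in edgeR). The block takes out the high level that replicate 3 shared in both groups. It thus narrows the spread of these genes by construction and is no independent support. The replicate numbers do not pair the libraries over all genes. Deviations of libraries with the same number correlated at -0.24, 0.16 and -0.18 over the 12296 genes, and irisin replicate 1 went best with PBS replicate 3 (0.36). Over all genes, rises numbered 516 and falls 396. Rises ran from 336 to 705 and falls from 238 to 585 with single libraries left out. Without PBS replicate 3 and irisin replicate 1 there were 892 rises and 788 falls, and falls were 602 with total counts alone, 600 with replicate 3 of PBS and of irisin left out, and 623 by limma-voom. Total counts alone moved the median of all genes to -0.086. Ifit3 turned to -0.072 without irisin replicate 3, and reached 1.47 without PBS replicate 3 and irisin replicate 1. The causes were not tested. With 3 libraries a group, genes as uneven as Ifit1 or Irf7 had standard errors of 1.11 and 0.92 on the log2 scale, and genes with low counts were not tested.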
